A study of Rattus norvegicus with 23 samples.

Results

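The transferases of phase II metabolism were followed in rat liver, that is the UDP-glucuronosyltransferases (UGT), the sulfotransferases (SULT) and the glutathione transferases (GST). Members were chosen by symbol: 43 rows of the count table carried a name of these families, and the 38 with 100 or more counts in total over the 23 libraries were kept, out of 28913 rows. They were 5 UGT, 12 SULT and 21 GST genes. The lowest totals kept were those of Sult5a1, with 293 counts, and Sult1d1, with 430. The 5 rows left out were Gstm6l with 10 counts, Gstt4 with 4, Ugt3a2 with 1, and Gstm3 and Gstm5 with 0. The study used RNA sequencing of whole liver from Sprague Dawley rats to set 2 models of portosinusoidal vascular disease, in which the small portal veins and sinusoids are damaged, against untreated rats. Selfox rats (10 libraries) ate a diet enriched in selenium for 8 weeks and were injected intravenously each week, 8 times in all, with a mixture of folinic acid at 45 mg/kg, 5-FU at 25 mg/kg and oxaliplatin at 3 mg/kg. LPS rats (7 libraries) were operated on under anaesthesia to place a lasting catheter towards the portal vein. They then had boluses of bacterial lipopolysaccharide (LPS) at 1 mg/kg, 2 a week, through 8 weeks. Control rats (6 libraries) had neither surgery, diet nor injections. Surgery and LPS therefore cannot be told apart in the LPS group, and neither can the diet and the drugs in the Selfox group. The labels do not say that each library came from a separate rat, so p-values measure the spread between libraries. Age and sex are not among the labels used here. Eif2s3y, a Y-linked gene, had between 41.5 and 62.9 CPM (counts scaled to a common library total) in all 23 libraries.

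Phase II enzymes attach a polar group to drugs, hormones, bile pigments and reactive chemicals, so that the product can be excreted in bile or urine. UGT enzymes use UDP-glucuronic acid in the endoplasmic reticulum, SULT enzymes use the sulfate donor PAPS in the cytosol, and GST enzymes join glutathione to electrophiles such as the products of lipid peroxidation. Many of these genes respond to the oxidative stress factor NRF2 or to the receptors AHR, PXR and CAR, and the hepatocyte is their main site in liver.

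Library totals ran between 65.1 and 74.8 M counts for Selfox, 70.4 and 79.2 M for LPS, and 31.9 and 53.8 M for Control. Counts thinned to equal depth left the number of members called in each comparison as it was. The defining hepatocyte gene Alb was at 65030 CPM or more in every library. In 5 libraries the clock output gene Dbp exceeded Arntl, the reverse of the other 18: Selfox 8 (by a narrow margin), LPS 5, LPS 6, LPS 7 and Control 55. Hours of collection are not among the labels, so counts are also given without these late-clock libraries.

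More members rose than fell in both models, and the rises were mostly of GST genes. A member is called higher or lower where its adjusted p was below 0.05 in edgeR's quasi-likelihood test, Benjamini-Hochberg adjusted over all 15079 genes tested, which included all 38 members. In Selfox livers 19 members rose and 1 fell against Control livers, where 14.2% of all genes tested rose and 14.9% fell. The median log2 fold change was 0.44 over the members and 0.01 over all genes tested. In LPS livers 8 members rose and 1 fell against Control livers, where 7.71% of all genes rose and 6.99% fell. The median log2 fold change was 0.24 over the members and 0.01 over all genes. The counts of rises include Sult4a1, which was at 0 in 5 of 6 Control libraries and passed the filter on low counts through the model libraries, so that its call lends no support. Of the other 37 members, 18 rose in Selfox livers and 7 in LPS livers. Between the models, 5 members were higher and 1 lower in Selfox than in LPS livers, where 6.86% of all genes were higher and 7.64% lower. These comparisons share libraries, so their counts are not independent. Because liver was sampled whole, fewer cells of a type and less RNA per cell cannot be told apart.

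By family, 15 of 21 GST genes, 3 of 12 SULT genes and 1 of 5 UGT genes rose in Selfox livers, and the member that fell was a SULT gene. In LPS livers 6 of 21 GST genes and 2 of 12 SULT genes rose, 1 SULT gene fell, and 0 of 5 UGT genes passed in edgeR's test (0 also at an unadjusted p below 0.05, with DESeq2 and with limma voom). Set side by side, with the Control libraries shared, 7 members passed as higher in both models: Gsta4, Gstk1, Gstt1, Mgst1, Mgst3, Sult1a1 and Sult4a1. Leaving out Sult4a1, 6 passed in both, and of the 11 other SULT genes 2 rose in Selfox livers and 1 in LPS livers. Beside these counts, 14.2% of all genes tested rose in Selfox livers and 7.71% in LPS livers. The counts of these 11 SULT genes and of the 5 UGT genes are near those shares. The share of all genes higher in both models was not counted, so the 7 and the 6 are descriptions only. A further 12 passed as higher in Selfox livers without passing in LPS livers, and Sult2a2 as lower. Gsto1 passed as higher and Sult1c3 as lower in LPS livers without passing in Selfox livers, and 16 members passed in neither. Passing in 1 model and not in the other does not show a difference between them. Every Selfox library lay above every Control library for 4 members, namely Gsta1, Gstk1, Gstm2 and Gstt1, where 2.37% of all genes did so. Every LPS library lay above every Control library for 1 member, Gsta4, where 1.83% of all genes did so. Without the late-clock libraries 22 members rose and 1 fell in Selfox livers, and 12 rose and 1 fell in LPS livers, against Control livers. The shares of all genes in that fit were not counted, so whether the larger counts are particular to the members is not known.

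**Figure D1:**
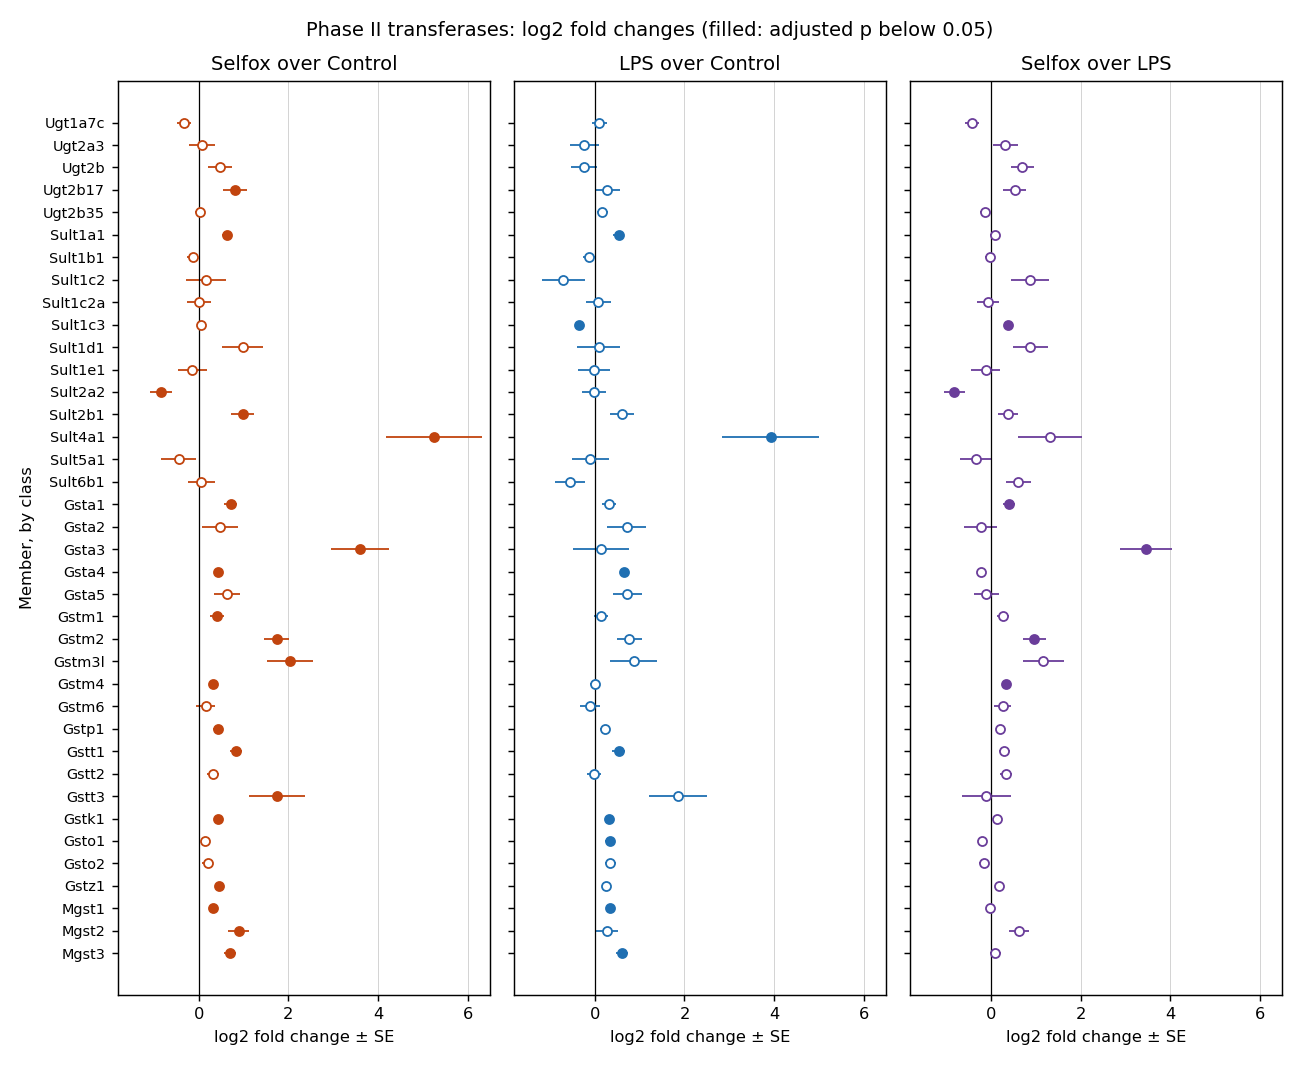
Log2 fold changes with standard errors (x axis) of the 38 members, ordered by class (y axis), for Selfox over Control, LPS over Control and Selfox over LPS. Filled points have an adjusted p below 0.05; in the first panel 15 of 21 GST genes are filled and lie to the right of 0, while Sult4a1, at 5.24, lies farthest out.

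The promoters of 6 called members are shown, a choice that does not follow the order of adjusted p. Each is the 300 bases from 250 before to 50 after a transcription start, in the direction of the gene. They were taken from RefSeq's promoter entry on the GRCr8 build. Capitals mark the core of the antioxidant response element (ARE), which NRF2 binds, searched as TGACNNNGC on both strands, and the core of the xenobiotic response element (XRE), which the AHR and ARNT pair binds, searched as GCGTG on both strands.
Gsta3 (chr9:31154739-31155038, plus strand): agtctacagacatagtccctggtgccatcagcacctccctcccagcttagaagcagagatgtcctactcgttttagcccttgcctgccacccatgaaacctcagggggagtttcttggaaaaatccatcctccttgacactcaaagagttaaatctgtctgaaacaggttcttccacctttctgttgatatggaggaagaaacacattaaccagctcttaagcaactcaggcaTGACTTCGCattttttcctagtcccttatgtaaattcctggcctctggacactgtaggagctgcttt
Gsta1 (chr9:31216483-31216782, minus strand): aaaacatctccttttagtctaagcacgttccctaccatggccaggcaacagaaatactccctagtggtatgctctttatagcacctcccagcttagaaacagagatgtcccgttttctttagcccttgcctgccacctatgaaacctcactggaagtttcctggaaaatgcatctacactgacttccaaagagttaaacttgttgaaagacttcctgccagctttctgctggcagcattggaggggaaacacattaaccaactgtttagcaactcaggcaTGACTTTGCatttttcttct
Gstm2 (chr2:198316868-198317167, minus strand): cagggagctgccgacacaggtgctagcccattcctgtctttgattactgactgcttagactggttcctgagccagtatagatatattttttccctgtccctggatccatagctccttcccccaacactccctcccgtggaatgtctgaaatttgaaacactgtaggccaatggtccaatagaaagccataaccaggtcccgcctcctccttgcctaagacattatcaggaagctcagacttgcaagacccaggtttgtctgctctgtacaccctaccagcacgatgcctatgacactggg
Gsta4 (chr8:87947015-87947314, plus strand): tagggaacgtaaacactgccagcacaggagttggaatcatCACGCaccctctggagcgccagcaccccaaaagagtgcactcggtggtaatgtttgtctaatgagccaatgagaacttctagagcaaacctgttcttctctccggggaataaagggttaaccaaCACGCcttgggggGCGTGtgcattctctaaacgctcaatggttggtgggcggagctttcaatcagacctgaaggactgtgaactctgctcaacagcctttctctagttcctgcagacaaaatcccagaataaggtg
Mgst3 (chr13:82080246-82080545, minus strand): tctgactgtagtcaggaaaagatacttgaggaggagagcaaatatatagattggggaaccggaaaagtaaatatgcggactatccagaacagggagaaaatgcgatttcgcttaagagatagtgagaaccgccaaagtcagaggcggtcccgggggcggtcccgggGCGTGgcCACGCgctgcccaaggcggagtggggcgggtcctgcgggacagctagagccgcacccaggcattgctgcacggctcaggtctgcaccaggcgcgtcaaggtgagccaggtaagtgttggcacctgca
Sult1a1 (chr1:190706063-190706362, minus strand): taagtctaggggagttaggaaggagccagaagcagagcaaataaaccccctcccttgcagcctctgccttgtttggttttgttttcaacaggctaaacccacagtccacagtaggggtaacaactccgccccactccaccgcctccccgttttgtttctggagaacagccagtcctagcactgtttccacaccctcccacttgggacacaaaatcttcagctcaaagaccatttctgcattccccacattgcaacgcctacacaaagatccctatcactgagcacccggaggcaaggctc
The first of 2 RefSeq entries is printed for Gsta3. The start of an entry need not be the outer end of the annotated gene. Counted from the start of its own entry, the Gsta3 window held an ARE core starting at -17 and the Gsta1 window 1 starting at 31. The Gsta4 window held 3 XRE cores, at -210, -86 and -73, and that of Mgst3 held 2, at -84 and -77. Those of Gstm2 and Sult1a1 held neither set of letters. Nor did that of Gstk1, not printed, which had the lowest adjusted p of the members in Selfox livers against Control. With every entry of a gene counted, 5 of the 32 members with an entry held an ARE core (15.6%), namely Gsta1, Gsta2, Gsta3, Gstp1 and Gstz1, against 13.1% of all 27457 genes with an entry, whose windows have the same length. An XRE core was in 8 of the 32 (25.0%), with Gsta3 counted through its second entry, against 32.4% of all genes. In 0 of the member promoters did the cores overlap. A match is a description of letters and not a bound site.

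The alpha class GST genes encode cytosolic enzymes that are abundant in hepatocytes and also reduce organic peroxides, and 3 of 5 rose in Selfox livers. Of the alpha genes Gsta3 had the largest log2 fold change. It had 4.36 CPM in the lowest Selfox library, a median of 21.5 and 69.3 in the highest, against 0.98, 2.6 and 4.06 CPM in LPS livers and 0.448, 1.84 and 5.00 CPM in Control livers. The Selfox libraries were uneven: Selfox 1, 2 and 3 had 50.2 to 69.3 CPM, while Selfox 8, 9 and 10 had 4.36 to 8.60 CPM. Even so, 9 of 10 Selfox libraries lay above every Control library and 10 of 10 above every LPS library. The log2 fold change was 3.60 ± 0.64 (SE) against Control (adjusted p = 0.000346), 12.1-fold, and 3.46 ± 0.59 against LPS (adjusted p = 0.000499). Between LPS and Control livers it was 0.14 ± 0.62 (adjusted p = 0.911).

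Gsta1 had a lowest, median and highest level of 454, 654 and 822 CPM in Selfox livers, 326, 487 and 626 CPM in LPS livers and 269, 416 and 440.5 CPM in Control livers. All 10 Selfox libraries lay above every Control library, while the LPS libraries spanned both ranges. It rose in Selfox livers by 0.72 ± 0.15 (log2, adjusted p = 0.000856), and in LPS livers the log2 fold change was 0.31 ± 0.15 (adjusted p = 0.181). Gsta4, whose enzyme prefers the lipid peroxidation aldehyde hydroxynonenal, was higher in both models: 57.4, 66.5 and 80.0 CPM in Selfox livers, 71.6, 76.6 and 92.4 CPM in LPS livers and 40.5, 48.3 and 58.7 CPM in Control livers. Every LPS library and 9 of 10 Selfox libraries lay above every Control library. Its log2 fold change was 0.44 ± 0.083 in Selfox livers (adjusted p = 0.000411) and 0.65 ± 0.089 in LPS livers (adjusted p = 0.000126), and the difference between the models, -0.21 ± 0.077, missed the threshold (adjusted p = 0.073).

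Gsta2 and Gsta5 differed within groups by more than between them. Gsta5 had 154 to 491 CPM in Selfox livers, 204 to 435 CPM in LPS livers and 97.6 to 301 CPM in Control livers, where Control 40, 49 and 55 were at 242 to 301 CPM and the other controls at 97.6 to 116 CPM. Gsta2, at lower counts, was high in the same 3 controls, with 17.1 to 21.2 CPM, against 4.26 to 6.80 CPM in the other controls. The log2 fold change of Gsta5 was 0.63 ± 0.29 in Selfox livers (adjusted p = 0.11) and 0.73 ± 0.31 in LPS livers (adjusted p = 0.123). Without the late-clock libraries Gsta5 passed in Selfox livers (0.84, adjusted p = 0.0483). With limma voom it passed in Selfox livers (0.89, adjusted p = 0.0115) and in LPS livers (1.08, adjusted p = 0.00903). Some alpha genes may be similar enough for the counting to have split their reads, and their identity was not analysed here. RefSeq lists Gsta3 and Gsta5 as other names of Gsta1, and Gsta1 as one of Gsta2. It also lists Gsta5 as another name of Gsta3, and Gsta2 as one of Gsta5. Which copy each row counted, and whether the promoters above belong to it, is therefore uncertain.

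The mu class, also cytosolic, had 4 of 5 genes higher in Selfox livers. In LPS livers edgeR called 0 of 5, with 1 (Gstm2) at an unadjusted p below 0.05, which DESeq2 and limma voom also called. Gstm2 led with a lowest, median and highest level of 342, 481 and 764 CPM in Selfox livers, 173, 251 and 416 CPM in LPS livers and 69.3, 113 and 271 CPM in Control livers. All 10 Selfox libraries were above every Control library and 9 of 10 above every LPS library. Control 49 and Control 55, at 260.5 and 271 CPM, stood apart from the other controls, which had 69.3 to 135 CPM. The log2 fold change was 1.74 ± 0.28 against Control (3.34-fold, adjusted p = 0.000125) and 0.97 ± 0.26 against LPS (adjusted p = 0.0126). In LPS livers it was 0.77 ± 0.28 against Control (adjusted p = 0.0716), and it passed without Control 49 (0.98, adjusted p = 0.0334) or without Control 55 (1.01, adjusted p = 0.0148).

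Gstm3l ranged more widely in Selfox livers, from 1.52 to 52.2 CPM with a median of 17.9, against 4.45 to 13.1 CPM in LPS livers and 1.76 to 8.57 CPM in Control livers. Selfox 4 was below every Control library and 8 of 10 Selfox libraries were above. It rose by 2.04 ± 0.52 in Selfox livers (log2, adjusted p = 0.00568). Gstm4 rose by 0.33 ± 0.098 against Control (adjusted p = 0.0133) and by 0.33 ± 0.093 against LPS (adjusted p = 0.0181), with LPS and Control at 0.00 ± 0.11. Gstm1, whose levels were 583, 844 and 1327 CPM in Selfox livers, 494, 732 and 855 CPM in LPS livers and 496, 669.8 and 764 CPM in Control livers, passed narrowly in Selfox livers (0.41 ± 0.15, adjusted p = 0.0439). That call was lost with Selfox and Control fitted alone (adjusted p = 0.0558) and in 10 of the 16 fits that each left out 1 library, with adjusted p up to 0.118 without Control 49: those without Selfox 1, 2, 3, 6, 7 or 10 and without Control 41, 46, 49 or 55. Gstm6 was at 3.66 CPM or less in every library and was not called in any comparison.

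Gstp1, the pi class enzyme, is scarce in normal rat hepatocytes and is present in bile duct cells. It had a lowest, median and highest level of 6.14, 8.72 and 11.8 CPM in Selfox livers, 6.49, 7.36 and 9.41 CPM in LPS livers and 5.71, 6.74 and 7.27 CPM in Control livers, and 9 of 10 Selfox libraries lay above every Control library. It rose by 0.44 ± 0.11 in Selfox livers (adjusted p = 0.00419), while in LPS livers the value was 0.23 ± 0.12 (adjusted p = 0.197). Of 10 markers of bile duct cells tested, 3 (Epcam, Anxa4 and Krt19) rose and 7 did not pass in Selfox livers, and 3 (Epcam, Krt7 and Cldn4) rose and 7 did not pass in LPS livers. Their median log2 fold change was 0.59 in Selfox and 0.15 in LPS livers, each against Control. Of all genes tested 14.2% rose in Selfox livers and 7.71% in LPS livers. The summed level of 11 such genes was 46.4 to 76.8 CPM in Selfox livers, 45.7 to 61.5 CPM in LPS livers and 33.0 to 50.4 CPM in Control livers, and none was at 0 in all libraries. Their part in the Gstp1 result was not tested.

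In the theta class, which acts on small halogenated molecules among others, 2 of 3 genes rose in Selfox livers and 1 in LPS livers. Gstt1 had a lowest, median and highest level of 18.9, 27.6 and 38.6 CPM in Selfox livers, 17.9, 24.0 and 27.3 CPM in LPS livers and 13.6, 15.8 and 18.6 CPM in Control livers. All 10 Selfox and 6 of 7 LPS libraries lay above every Control library. On the log2 scale Gstt1 rose by 0.83 ± 0.14 in Selfox livers (adjusted p = 0.000142) and by 0.53 ± 0.15 in LPS livers (adjusted p = 0.0169). Gstt3 varied widely within groups: 12.8, 44.9 and 229 CPM in Selfox livers, 19.1, 65.6 and 164 CPM in LPS livers and 8.53, 16.6 and 54.9 CPM in Control livers. The late-clock LPS 5, 6 and 7 had 19.1 to 28.2 CPM, and LPS 1 to 4 had 65.6 to 164 CPM. Selfox 8, also late-clock, was the lowest Selfox library, while late-clock Control 55, at 19.7 CPM, was above the Control median. The part of collection hour in this spread was not tested. The groups overlapped broadly, with 4 of 10 Selfox and 4 of 7 LPS libraries above every Control library. The log2 fold change of Gstt3 was 1.75 ± 0.62 in Selfox livers (adjusted p = 0.0366) and 1.85 ± 0.65 in LPS livers (adjusted p = 0.0572). The Selfox call was lost in 7 of 16 fits with 1 library left out (without Selfox 3 or 6, or Control 41, 46, 49, 52 or 55), with adjusted p up to 0.0778, and with no filter on low counts (adjusted p = 0.0576). The LPS value passed with DESeq2 (adjusted p = 0.0177), with limma voom (adjusted p = 0.0116), without the late-clock libraries (adjusted p = 0.0181), and without LPS 5, LPS 6, LPS 7 or Control 40, with adjusted p between 0.0227 and 0.0474. Gstt2 passed in neither model in the main edgeR fit, and in Selfox livers it passed without the late-clock libraries (0.40, adjusted p = 0.0474).

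The single kappa, zeta and pi genes and all 3 microsomal genes were higher in Selfox livers. Gstk1, a mitochondrial and peroxisomal enzyme, had a lowest, median and highest level of 90.4, 98.9 and 116 CPM in Selfox livers, 80.7, 93.1 and 97.8 CPM in LPS livers and 60.8, 75.7 and 84.6 CPM in Control livers, with 10 of 10 Selfox and 6 of 7 LPS libraries above every Control library. Its spread within groups was small, and a log2 fold change of 0.43 ± 0.071 in Selfox livers (adjusted p = 0.000119) and 0.31 ± 0.076 in LPS livers (adjusted p = 0.00914) passed. Gstz1, which as maleylacetoacetate isomerase acts in tyrosine breakdown, had 347, 399 and 450.2 CPM in Selfox livers, 311, 341 and 407 CPM in LPS livers and 239, 287 and 377 CPM in Control livers. It rose in Selfox livers (0.45 ± 0.088, adjusted p = 0.000591), and in LPS livers its value was 0.26 ± 0.093 (adjusted p = 0.0592), which passed without LPS 4 or Control 55 (adjusted p = 0.0492 and 0.00748).

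The omega genes, whose enzymes transfer thiols and reduce dehydroascorbate, ran higher in LPS than in Selfox livers by point value. Gsto1 had 51.5, 67.3 and 80.9 CPM in Selfox livers, 59.7, 80.0 and 92.2 CPM in LPS livers and 56.4, 58.6 and 70.9 CPM in Control livers. It rose in LPS livers (0.34 ± 0.11, adjusted p = 0.034), but 8 of 13 fits with 1 library left out lost the call (without LPS 1, 2, 4 or 6, or Control 41, 46, 49 or 52), with adjusted p up to 0.0869, as did upper-quartile factors (adjusted p = 0.061). In Selfox livers its value was 0.15 ± 0.10 (adjusted p = 0.259), and the difference between Selfox and LPS livers, -0.19 ± 0.094, did not pass (adjusted p = 0.193). Gsto2 gave 0.20 ± 0.12 in Selfox livers (adjusted p = 0.212) and 0.35 ± 0.12 in LPS livers (adjusted p = 0.0592). The LPS value of Gsto2 passed without LPS 5, LPS 7 or Control 55, with adjusted p between 0.0166 and 0.0378.

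The microsomal transferases sit in membranes, and Mgst2 and Mgst3 can also form cysteinyl leukotrienes. Mgst1 had a lowest, median and highest level of 1689, 1887 and 2079.8 CPM in Selfox livers, 1672, 1867 and 2067 CPM in LPS livers and 1200.0, 1385 and 1936 CPM in Control livers. The 2 models were almost level, and the highest control overlapped both, so that 3 libraries of each model lay above every Control library. Mgst1 rose by 0.33 ± 0.088 in Selfox livers (adjusted p = 0.00644) and by 0.34 ± 0.094 in LPS livers (adjusted p = 0.0176), the LPS call being lost without Control 49 (0.28, adjusted p = 0.0588) and with LPS and Control fitted alone (0.33, adjusted p = 0.0591). Mgst3 had 40.2, 48.3 and 62.1 CPM in Selfox livers, 35.0, 46 and 56.5 CPM in LPS livers and 24.5, 26.6 and 42.7 CPM in Control livers. It rose by 0.70 ± 0.13 in Selfox livers (adjusted p = 0.000294) and by 0.61 ± 0.13 in LPS livers (adjusted p = 0.00443). Mgst2 rose in Selfox livers (28.4 to 57.2 CPM, against 11.9 to 31.1 CPM in Control livers; 0.89 ± 0.24, adjusted p = 0.0071), and LPS libraries, at 13.8 to 43.5 CPM, gave 0.27 ± 0.25 against Control (adjusted p = 0.509).

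**Figure D2:**
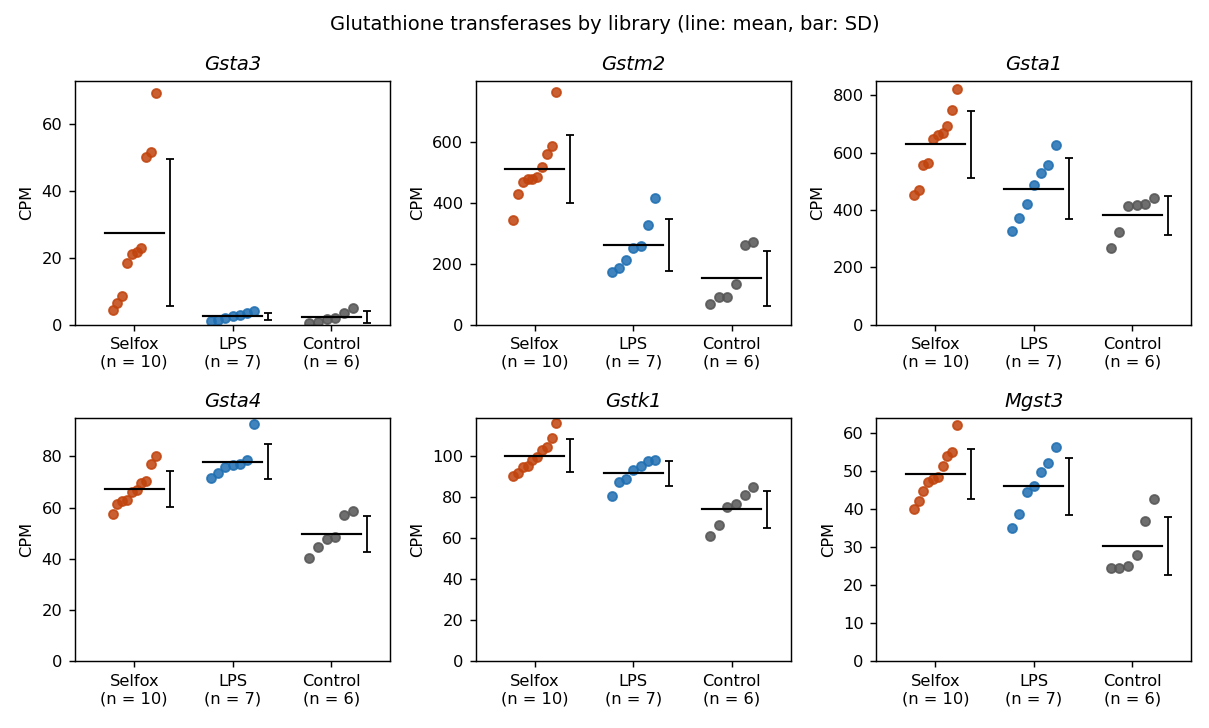
Levels (CPM, y axis from 0) of 6 GST genes in each library, by group (x axis: Selfox, n = 10; LPS, n = 7; Control, n = 6). Lines are means and bars SD; Gsta3 and Gstm2 are high in Selfox livers, Gsta4 is highest in LPS livers with no overlap with Control, and Gstk1 and Mgst3 are raised in both models.

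Levels of other cell types moved with the groups too. The 11 Kupffer cell and macrophage markers tested all fell in Selfox livers, with a summed level of 285 to 445 CPM, against 681 to 1051 CPM in LPS livers and 788 to 1071 CPM in Control livers. T and B cell markers fell as well (8 of 11, summed 16.0 to 28.8 CPM in Selfox livers and 32.7 to 42.2 CPM in Control livers), and 5 of 8 neutrophil markers tested rose (summed 5.35 to 122 CPM in Selfox livers and 4.45 to 12.6 CPM in Control livers). Among hepatocyte markers 5 of 13 rose and 3 fell in Selfox livers, and 3 rose and 0 fell in LPS livers. Their summed level was 153640 to 177960 CPM in Selfox livers (median 167730) and 170950 to 253180 CPM in Control livers (median 195330). In LPS livers the sum was 137040 to 210680 CPM (median 191260). Of 12 periportal markers 7 rose in Selfox livers, and 5 rose and 1 fell in LPS livers, with a summed level of 11692 to 17974 CPM in Selfox livers, 12634 to 15992 CPM in LPS livers and 8663 to 13426 CPM in Control livers. Of 12 pericentral markers 0 rose and 2 fell in Selfox livers, and 1 rose and 0 fell in LPS livers. Of all genes tested 14.2% rose and 14.9% fell in Selfox livers, and 7.71% rose and 6.99% fell in LPS livers. No marker of these lists was at 0 in every library. The part of cell makeup in the GST rises was not tested.

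The sulfotransferases moved gene by gene. Sult1a1, the main phenol sulfotransferase, rose in both models, with a lowest, median and highest level of 426, 587 and 694 CPM in Selfox livers, 439, 524 and 666 CPM in LPS livers and 285, 361 and 479 CPM in Control livers. In Selfox livers 8 of 10 libraries, and in LPS livers 6 of 7, were above every Control library. Sult1a1 rose by 0.63 ± 0.12 (log2) in Selfox livers (adjusted p = 0.000354) and by 0.53 ± 0.12 in LPS livers (adjusted p = 0.00624). Sult1c3 was low in LPS livers: 209.7, 240.3 and 271 CPM in Selfox livers, 139, 191 and 228 CPM in LPS livers and 208, 230.2 and 280.0 CPM in Control livers. In LPS livers 5 of 7 libraries were below every Control library, and 9 of 10 Selfox libraries were above every LPS library. It fell by 0.34 ± 0.093 in LPS livers against Control (log2, adjusted p = 0.0173), it gave 0.05 ± 0.087 in Selfox livers (adjusted p = 0.733), and Selfox exceeded LPS by 0.38 ± 0.084 (adjusted p = 0.00327). With LPS and Control fitted alone, the call was lost (-0.35, adjusted p = 0.0519).

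Sult2a2, a hydroxysteroid and bile acid sulfotransferase gene, was the member that fell in Selfox livers. It had 223, 459.6 and 622 CPM in Selfox livers, 397, 874 and 1053 CPM in LPS livers and 488, 843 and 1219.9 CPM in Control livers, and 5 of 10 Selfox libraries were below every Control library. The log2 fold change was -0.84 ± 0.25 against Control (adjusted p = 0.0129) and -0.82 ± 0.24 against LPS (adjusted p = 0.0221), with LPS against Control at -0.02 ± 0.27. Without Control 41, the highest control, the call was lost (-0.67, adjusted p = 0.0542), and the difference from LPS was lost without LPS 5 (-0.74, adjusted p = 0.0512) or without LPS 6 (-0.74, adjusted p = 0.0532). Its relative Sult2b1, which sulfates cholesterol, rose in Selfox livers at a low level, with 1.24, 1.56 and 2.83 CPM in Selfox livers, 0.791, 1.31 and 1.94 CPM in LPS livers and 0.276, 0.869 and 1.34 CPM in Control livers. Its log2 fold change was 0.98 ± 0.26 in Selfox livers (adjusted p = 0.00579) and 0.61 ± 0.27 in LPS livers (adjusted p = 0.133). With limma voom the LPS value passed (0.85, adjusted p = 0.0451).

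Sult4a1, known mainly from brain and without a well-defined substrate, was at 0 counts in 5 of 6 Control libraries and at 35 counts (0.782 CPM) in Control 55. It had 53 to 816 counts in all 10 Selfox libraries (0.744, 6.23 and 11.2 CPM) and 7 to 316 counts in all 7 LPS libraries (0.098, 1.47 and 4.39 CPM). Above every Control library lay 9 of 10 Selfox and 5 of 7 LPS libraries. With libraries at 0 set to a floor of 3 counts each, its mean CPM was 27.9 times that of Control in Selfox livers and 11.1 times in LPS livers. Without Control 55, whose counts make up all of the Control signal, it was at least 68.9-fold higher in Selfox livers and at least 27.5-fold higher in LPS livers than the 5 controls at 0, set to the same floor. The fitted log2 fold changes of 5.24 ± 1.07 in Selfox livers and 3.92 ± 1.08 in LPS livers depend on how zeros are handled. Without Control 55 they were 11.48 in Selfox and 10.16 in LPS livers. The LPS call was lost with LPS and Control fitted alone (adjusted p = 0.0532) and with limma voom (adjusted p = 0.0807).

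None of the other SULT1 genes passed in a comparison in edgeR's test, and limma voom called Sult1c2 higher in Selfox than in LPS livers (1.63, adjusted p = 0.0436). Sult1e1, the oestrogen sulfotransferase, had 647, 1768 and 3348 CPM in Selfox livers, 1334, 1764 and 3345 CPM in LPS livers and 832, 2088 and 2889 CPM in Control livers, and the groups overlapped throughout. Its log2 fold change was -0.14 ± 0.33 in Selfox livers (adjusted p = 0.786) and -0.02 ± 0.35 in LPS livers (adjusted p = 0.984). Sult1b1, which sulfates thyroid hormones, gave -0.13 ± 0.12 (adjusted p = 0.429) and Sult1c2a 0.01 ± 0.26 (adjusted p = 0.99) in Selfox livers. Sult1c2, Sult1d1, Sult5a1 and Sult6b1 were at 0.974 CPM or less in every library, and their standard errors of 0.28 to 0.49 on the log2 scale limit what could be seen.

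**Figure D3:**
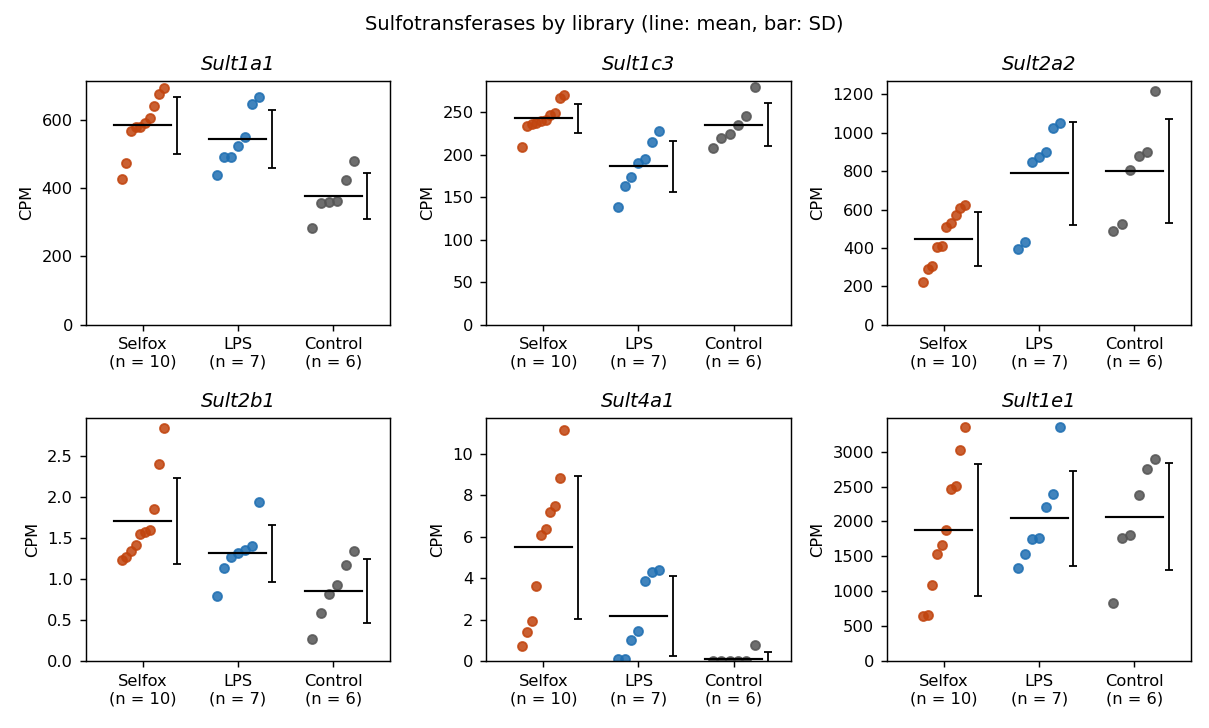
Levels (CPM, y axis from 0) of 6 SULT genes in each library, by group (x axis: Selfox, n = 10; LPS, n = 7; Control, n = 6), with means as lines and SD as bars. Sult1a1 is raised in both models, Sult1c3 is low in LPS livers, Sult2a2 is low in Selfox livers, and Sult4a1 is at 0 in 5 of 6 Control libraries.

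Among the glucuronosyltransferases, Ugt2b17 passed in Selfox livers against Control, and in edgeR's test the other 4 genes did not pass in any comparison. Ugt2b17 had 140.0, 245 and 345 CPM in Selfox livers, 89.6, 165 and 256 CPM in LPS livers and 43.4, 159 and 199 CPM in Control livers, and 6 of 10 Selfox libraries were above every Control library. Its log2 fold change was 0.81 ± 0.27 in Selfox livers (adjusted p = 0.0262) and 0.28 ± 0.28 in LPS livers (adjusted p = 0.551), and the Selfox call was lost without Control 49 (0.71, adjusted p = 0.0709). Ugt2b, named for the UGT2B enzymes that glucuronidate steroids, was split within groups. Selfox 6, 7, 8 and 9 had 3142 to 3684 CPM and the other Selfox libraries 1224 to 1958 CPM, LPS libraries had 1024 to 1572 CPM, and Control 46 had 3475 CPM against 1054 to 1409 CPM in the other controls. The log2 fold change of Ugt2b was 0.47 ± 0.27 in Selfox livers (adjusted p = 0.2), and without Control 46 it was 0.86 (adjusted p = 0.0108). In LPS livers it was -0.24 ± 0.29 (adjusted p = 0.63). Between Selfox and LPS livers it was 0.70 ± 0.26 (adjusted p = 0.072), which passed with DESeq2 (0.71, adjusted p = 0.0273), with these groups fitted alone (0.71, adjusted p = 0.0464) and without Selfox 4 (0.79, adjusted p = 0.043).

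The UGT1 enzymes, which include the bilirubin glucuronosyltransferase, share their last exons, and the table holds them as 1 row, Ugt1a7c. It had 338, 459 and 682 CPM in Selfox livers, 519.7, 577 and 841 CPM in LPS livers and 390.2, 589 and 819 CPM in Control livers. Its log2 fold change was -0.32 ± 0.15 in Selfox livers against Control (adjusted p = 0.12) and -0.42 ± 0.15 against LPS (adjusted p = 0.0566). Without Selfox 1 both values passed (-0.40, adjusted p = 0.0467, and -0.50, adjusted p = 0.0203), and without LPS 6 or Selfox 3 the value against LPS passed (adjusted p = 0.0484 and 0.0348). It also passed with DESeq2 (adjusted p = 0.0398) and with Selfox and LPS fitted alone (adjusted p = 0.0483). Ugt2b35 (0.04 ± 0.11 in Selfox livers, adjusted p = 0.794) and Ugt2a3 (0.08 ± 0.29, adjusted p = 0.858) were near 0. The Ugt2b genes may be close copies, with reads split among their rows, and their identity was not analysed here.

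**Figure D4:**
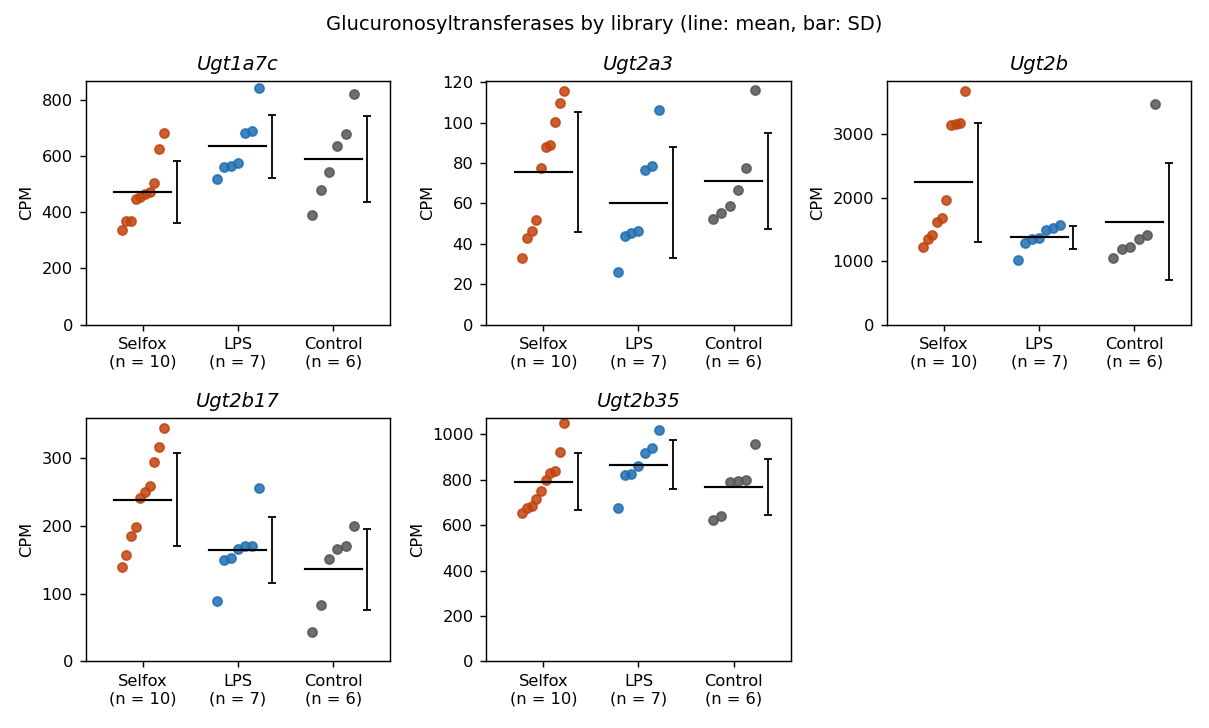
Levels (CPM, y axis from 0) of the 5 UGT genes in each library, by group (x axis: Selfox, n = 10; LPS, n = 7; Control, n = 6), with means as lines and SD as bars. Ugt2b falls into a high and a low set within Selfox livers, and Control 46 lies with the high set.

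Set directly against each other, Selfox exceeded LPS livers in Gsta3, Gstm2, Gstm4, Gsta1 and Sult1c3, and was lower in Sult2a2. Gsta3 was the member with no overlap between these groups, where 0.743% of all genes had every Selfox library above every LPS library. Gsta1, at 0.41 ± 0.14 (adjusted p = 0.0491), lost its call with these groups fitted alone (adjusted p = 0.0571), with no filter on low counts (adjusted p = 0.0563), with limma voom (adjusted p = 0.0631) and in 13 of 17 fits with 1 library left out, up to an adjusted p of 0.107 without LPS 7. It was kept without LPS 1 or 2 and without Selfox 4 or 8. Of the 5 late-clock libraries 3 are LPS libraries and 1 is a Selfox library. Without them, 3 members were higher in Selfox livers and 0 lower: Gsta3 and Sult1c3 stayed past the threshold and Mgst2 joined (1.04, adjusted p = 0.0159). Gsta1 (0.35, adjusted p = 0.12), Gstm2 (0.90, adjusted p = 0.0583), Gstm4 (0.30, adjusted p = 0.0857) and Sult2a2 (-0.81, adjusted p = 0.0646) then missed it. The part of collection hour in these differences was not tested.

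**Figure D5:**
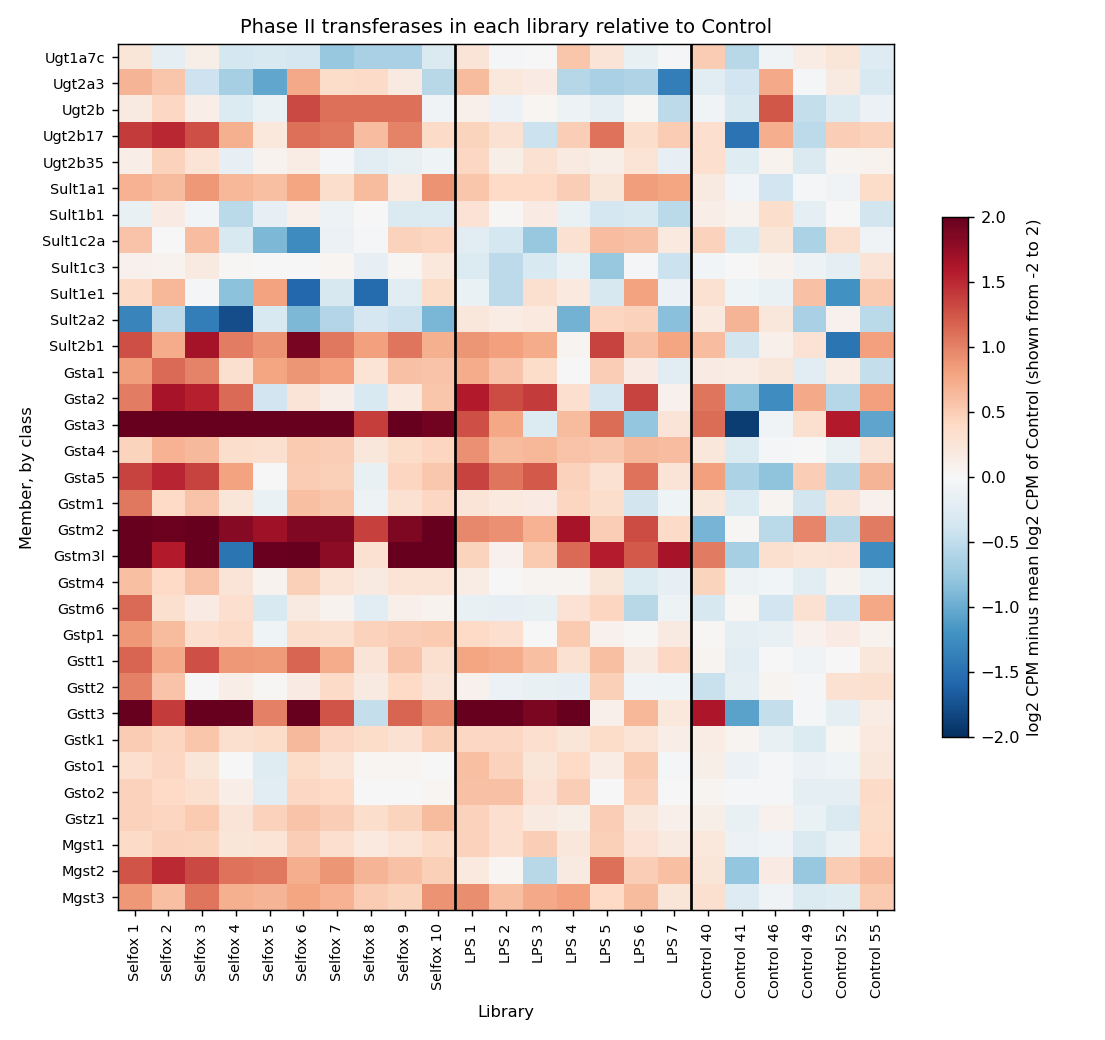
Log2 CPM of 33 members (y axis, by class) in each library (x axis: 10 Selfox, 7 LPS, 6 Control) minus the mean log2 CPM of Control, with colours from -2 to 2; members at 0.25 CPM or less in any library are left out. Red cells, above the Control mean, fill most of the GST rows in Selfox livers, while the Ugt2b, Gsta2, Gsta5 and Gstt3 rows vary among libraries of 1 group.

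Genes that supply or follow the conjugation steps were read from lists. Beside them, 14.2% of all genes tested rose and 14.9% fell in Selfox livers, and 7.71% rose and 6.99% fell in LPS livers. In lists of 10 genes or fewer, counts of 0 or 1 are near those shares. For UDP-glucuronic acid, 1 of 6 genes rose (Pgm1, which makes a glucose phosphate used for it, 0.49 ± 0.078, adjusted p = 8.89e-05) and 1 fell (Slc35d1, a nucleotide sugar carrier, -0.21 ± 0.064, adjusted p = 0.0144) in Selfox livers. The Slc35d1 call was lost without the late-clock libraries (-0.17, adjusted p = 0.0624). In LPS livers Pgm1 rose (0.34 ± 0.083, adjusted p = 0.00751). For PAPS and sulfate, 2 of 7 rose in Selfox livers, namely Suox, the sulfite oxidase (0.58 ± 0.064, adjusted p = 1.29e-06), and the PAPS synthase Papss1 (0.44 ± 0.12, adjusted p = 0.00948), and Suox rose in LPS livers (0.37 ± 0.068, adjusted p = 0.00109). Suox had 83.4 to 112 CPM in Selfox livers, 78.6 to 95.4 CPM in LPS livers and 62.5 to 69.6 CPM in Control livers, with no overlap between either model and Control.

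Genes of glutathione synthesis and reduction gave no rises against Control in the main edgeR fit. Of 10 genes 0 rose and 1 fell in Selfox livers, where 14.2% of all genes rose and 14.9% fell. In LPS livers 0 rose and 2 fell, where 7.71% of all genes rose and 6.99% fell. Without the late-clock libraries Cth passed as higher in LPS livers (0.76, adjusted p = 0.0282), as it did without LPS 6 (0.68, adjusted p = 0.0261). Without LPS 6 Gclm passed as lower (-0.42, adjusted p = 0.0492). Slc3a2, the heavy chain of the cystine and other amino acid carriers, fell by 0.78 ± 0.11 in Selfox livers (adjusted p = 2.89e-05) and by 0.72 ± 0.12 in LPS livers (adjusted p = 0.000578). It had 62.2 to 96.2 CPM in Selfox livers, 58.2 to 102 CPM in LPS livers and 100.1 to 160.4 CPM in Control livers. Slc7a11, the cystine carrier itself, fell in LPS livers (-2.58 ± 0.74, adjusted p = 0.0232), a call lost without Control 46 (-1.62, adjusted p = 0.133), without the late-clock libraries (-2.70, adjusted p = 0.0899) and with limma voom (-1.83, adjusted p = 0.198). Gclc, the catalytic subunit of the rate-limiting ligase of glutathione synthesis, gave -0.10 ± 0.20 in Selfox livers (adjusted p = 0.726), and its partner Gclm gave -0.12 ± 0.14 (adjusted p = 0.563).

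After conjugation, 2 of 9 mercapturate pathway genes rose and 1 fell in Selfox livers: Lap3, a leucine aminopeptidase (0.33 ± 0.071, adjusted p = 0.00144), Ggt1, which removes the glutamyl group (0.77 ± 0.28, adjusted p = 0.0444), and the dipeptidase Dpep2, which fell (-1.13 ± 0.24, adjusted p = 0.00137). Ggt1 was at 0.698 CPM or less in every library, and its call was lost without the late-clock libraries (0.55, adjusted p = 0.155) and in fits without Selfox 1, 3, 4, 6 or 8 or Control 40, 41, 52 or 55 (adjusted p up to 0.108). In LPS livers Lap3 rose (0.44 ± 0.076, adjusted p = 0.000687). Of 9 efflux transporters Abcc4 rose in Selfox livers (0.50 ± 0.13, adjusted p = 0.00651), and edgeR called 0 in LPS livers, with 1 (Abcg2) at an unadjusted p below 0.05 and 0 called by DESeq2 or limma voom. Of 8 deconjugating enzymes 1 fell in Selfox livers, the beta-glucuronidase Gusb (-0.28 ± 0.081, adjusted p = 0.0122), where 14.9% of all genes fell. In LPS livers 1 fell, the steroid sulfatase Sts (-0.41 ± 0.12, adjusted p = 0.0253), a call lost without LPS 2 or 5 or Control 40, 49 or 52 (adjusted p up to 0.0821) and without the late-clock libraries (-0.41, adjusted p = 0.0672).

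Among 15 other phase II genes tested, 5 rose in Selfox livers and 2 in LPS livers, and 0 fell. Of all genes tested 14.2% rose in Selfox livers and 7.71% in LPS livers. Those that rose in Selfox livers included the arylamine acetyltransferase Nat2, the acyl-CoA synthetases Acsm5 and Acsm2, and the nicotinamide methyltransferase Nnmt, with log2 fold changes of 0.69, 1.48, 0.21 and 0.62. The Nnmt call was lost without Control 49 (0.57, adjusted p = 0.0529). In LPS livers the creatine synthesis gene Gamt rose (0.36 ± 0.080, adjusted p = 0.00408).

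Of 16 genes of the xenobiotic receptor and NRF2 list 3 rose and 2 fell in Selfox livers, where 14.2% of all genes rose and 14.9% fell. In LPS livers 2 of the 16 rose, where 7.71% of all genes did so. For a list of 16 these counts are near the shares of all genes. Other fits called more of them. In LPS livers Ahr passed as lower with DESeq2, limma voom and without the late-clock libraries (adjusted p = 0.0449, 0.0172 and 0.0312). Nr1i3, which encodes CAR, passed as lower there with DESeq2 and limma voom (adjusted p = 0.0276 and 0.0453). Foxa2 passed as higher there without Control 55 (adjusted p = 0.0396). In Selfox livers Ahr passed as lower with limma voom (adjusted p = 0.0408). Nfe2l2, which encodes NRF2, had 76.0 to 157 CPM in Selfox livers, 89.7 to 125 CPM in LPS livers and 46.8 to 79.5 CPM in Control livers, and rose by 0.92 ± 0.15 in Selfox livers (adjusted p = 0.000105) and by 0.77 ± 0.15 in LPS livers (adjusted p = 0.00212). Arnt, the AHR partner, rose in both (0.32 ± 0.076 in Selfox livers, adjusted p = 0.00268, and 0.32 ± 0.081 in LPS livers, adjusted p = 0.0107). The hepatocyte factor Hnf4a (-0.53 ± 0.091, adjusted p = 0.000198) and Por, which passes electrons to the microsomal P450 enzymes (-0.81 ± 0.14, adjusted p = 0.000272), fell in Selfox livers. Of 19 NRF2 targets outside the families 7 rose and 1 fell in Selfox livers, and 1 rose and 2 fell in LPS livers. Of those that rose in Selfox livers, Akr7a3 (1.18, adjusted p = 0.0377) lost its call in 7 of 16 fits with 1 library left out. It also lost it with no filter on low counts (adjusted p = 0.0583) and with Selfox and Control fitted alone (adjusted p = 0.081). Me1 lost its call with no filter (adjusted p = 0.0674). Leaving out Selfox 2, 3, 5, 6, 7 or 9 or Control 40, 41, 46, 49 or 52 also lost the Me1 call (adjusted p up to 0.101). Akr1b8, an aldehyde reductase, rose in Selfox livers (1.46 ± 0.37, adjusted p = 0.00476) and fell in LPS livers (-1.45 ± 0.40, adjusted p = 0.0188). Cbr3 was the target that fell in Selfox livers (-1.06 ± 0.24, adjusted p = 0.00203).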

How the data were processed

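The authors deposited whole-number read counts for each gene in 23 rat liver libraries, made with a stranded mRNA kit per the labels. Per the submitters' processing notes, the authors used FastQC, Trim Galore, STAR 2.7.9a and featureCounts of Subread 2.0.3. Genome build, annotation and strand setting: not given in the sources used here. Overlapping or antisense genes are thus uncertain. Even numbers made up 66.1% to 74.9% of counts from 1 to 9 in each library, so both ends of a pair may have been counted. Counts divided by 2 were tried as well.

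The filter was filterByExpr (minimum count 10), which left 15079 of 21753 genes with any count. All 3 groups were fitted together with TMM factors and edgeR's robust quasi-likelihood test, Benjamini-Hochberg adjusted at 0.05. The standard error is the size of the log2 fold change over the square root of F. CPM used TMM-scaled library sizes. R 4.3.3, edgeR 4.0.16, limma 3.58.1, DESeq2 1.42.0 and Python 3.11.15 were used, and the steps were tested on simulated data. Members are given by library range where they led by adjusted p (6 per direction) or size (4 per direction) or had the highest mean level of a class, and partner lists by up to 4 genes. The members and lists were chosen with earlier results of these data known. Groups came from the treatment labels, and no library was left out. Alternatives were other scaling factors, filters, DESeq2, limma voom, pairs of groups alone, equal depth, each library left out and the late-clock libraries left out. A fit with the shared replicate numbers as a block was tried too, and its counterpart on the same libraries was added after the data were seen. Promoters were matched by symbol. Protein identity between members was not analysed here, and a few members of the partner lists are counted but not reported here by name.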

Additional observations from a re-analysis of the deposited data

Results flagged for a closer look

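On the log2 CPM scale, 6 of 114 groups of libraries (38 members in 3 groups) held a library whose gap to its nearest neighbour was too large a share of the group's range for Dixon's test at the 95% level, where chance flags about 1 in 20 groups. No explanation was tested for any of them. Sult4a1 in Control 55, at 0.782 CPM against 0 in the other 5 controls, had a ratio of 1.0. Ugt2b in Control 46, at 3475 CPM against 1054 to 1409 CPM in the other controls, had a ratio of 0.757. Gsta4 in LPS 1 was at 92.4 CPM against 71.6 to 78.4 CPM in the other LPS libraries (0.646). Gstt2 in LPS 5 was at 15.1 CPM against 9.75 to 11.5 CPM in the others (0.619). Sult1c2 in LPS 7 was at 0 CPM against 0.156 to 0.56 CPM in the others (0.608). Gstm6 in Selfox 1 was at 3.66 CPM against 1.36 to 2.12 CPM in the others (0.557).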

How the results depend on the processing

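The number of members called higher in Selfox against Control livers was 19 and lay between 16 and 19 when each library was left out in turn, with 0 to 2 lower (2 without Selfox 1, 0 without Control 41). In LPS against Control livers the range was 7 to 11 higher and 1 lower, and limma voom gave 13 higher and DESeq2 12 higher. Shares of all genes called were not counted for the alternatives, so whether such changes are particular to the members is not known. With only LPS and Control fitted, 0 members were lower (Sult1c3 at an adjusted p of 0.0519). In Selfox against LPS livers the range was 4 to 7 higher and 0 to 2 lower (0 without LPS 5, 2 without Selfox 1, 2 or 3). Without the late-clock libraries 3 were higher and 0 lower, and 2 were lower with the groups fitted alone, with limma voom and with DESeq2. RLE and upper-quartile factors, equal depth and counts divided by 2 moved no count by over 1.5 times. The medians of all genes moved by less than 0.1 under either factor. LPS and Selfox libraries share the numbers 1 to 7, but same-numbered libraries correlated at -0.064 to 0.177 and only 1 of 7 correlated best with its own number, so the numbers do not pair them. With this replicate block 6 members were higher and 1 lower in Selfox against LPS livers, and without it on the same 14 libraries 7 and 1. No result reversed under these alternatives. The lowest depth, 31.9 M counts, is in the Control group, and limits genes such as Sult4a1, Sult1c2, Sult1d1, Sult5a1 and Sult6b1.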

Other observations

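Genes that differ between the sexes in rat liver were read beside the transferases, some of which are sex-dependent in rats. Of 8 tested, 3 rose in Selfox livers and 1 in LPS livers, and 0 fell, where 14.2% and 7.71% of all genes rose. Cyp2c11, the male-specific P450, had 2089 to 4194 CPM in Selfox livers, 1083 to 2877 CPM in LPS livers and 1011 to 3520 CPM in Control livers, and rose by 0.94 ± 0.24 in Selfox livers (adjusted p = 0.00521). Cyp2c22 rose by 0.87 ± 0.21 (adjusted p = 0.00402) and Hsd3b5 by 0.54 ± 0.16 (adjusted p = 0.0123) in Selfox livers, and Cyp2a1 by 0.48 ± 0.11 in LPS livers (adjusted p = 0.00465). Other fits called more of these genes higher in LPS livers. Without the late-clock libraries Cyp2c11 (0.74, adjusted p = 0.00817), Cyp2c13 (0.52, adjusted p = 0.0105), Cyp2c22 (0.72, adjusted p = 0.014) and Hsd3b5 (0.57, adjusted p = 0.00826) passed there. Cyp2c11 and Hsd3b5 also passed with limma voom (adjusted p = 0.0374 and 0.0359) and without Control 55 (adjusted p = 0.00911 and 0.00873).

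The target genes of AHR, CAR and PXR gave 0 calls of 9 in Selfox livers in the main edgeR fit (1, Cyp2b2, at an unadjusted p below 0.05 and with DESeq2, 0 with limma voom), and 2 rises and 1 fall in LPS livers. Of all genes tested 14.2% rose and 14.9% fell in Selfox livers, and 7.71% rose and 6.99% fell in LPS livers. Other edgeR fits called some in Selfox livers. Cyp3a9 passed as higher without the late-clock libraries (0.86, adjusted p = 0.0318), and Cyp1a1 with Selfox and Control fitted alone (1.72, adjusted p = 0.0478). Cyp2b2, the classic CAR target, had 13.0 to 47.9 CPM in Selfox livers, 5.40 to 19.8 CPM in LPS livers and 15.2 to 125 CPM in Control livers, and fell by 2.65 ± 0.42 in LPS livers (adjusted p = 0.000507). In Selfox livers Cyp2b2 passed as lower with a minimum count of 50 (adjusted p = 0.0456) and with counts divided by 2 (adjusted p = 0.0499). It also passed there without the late-clock libraries (adjusted p = 0.0367), and without Selfox 2, 3 or 10 or Control 41 or 55 (adjusted p between 0.0165 and 0.0491). The AHR target Tiparp rose in LPS livers by 1.04 ± 0.25 (adjusted p = 0.00734). Cyp1a1 was uneven, with 0.35 to 46.1 CPM in LPS livers and 0.103 to 1.99 CPM in Control livers, and its rise of 4.17 ± 1.1 (adjusted p = 0.0183) was lost with limma voom (adjusted p = 0.234) and with LPS and Control fitted alone (adjusted p = 0.0723).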
